A study of Mus musculus with 6 samples.

Results

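In C2C12 cells, a mouse myoblast line, 34 transcripts were nearly silent under control siRNA (siCTRL) and present in every library after knockdown of Setdb1 with siRNA (siSetdb1). They were chosen by their level in scaled counts (CPM, the reads counted for a transcript per 1000000 counts in its library). A member had under 0.1 CPM in each of the 3 siCTRL libraries and at least 0.3 CPM in each of the 3 siSetdb1 libraries. Of the 55419 transcripts in the table, 39 met these limits, and 5 of the 39 repeated all 6 counts of another one, which left 34 members with distinct counts. Because the levels in both conditions chose the members, their levels and fold changes are given as a description and were not tested as a finding.

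The cells of both conditions were transfected at a final siRNA concentration of 33 nM and processed 72 h after the first transfection, with a repeat transfection after 24 h in the Setdb1 knockdown. The control carried a control siRNA, and the sources used here do not state whether it was transfected again. The study describes the RNA-seq as a knockdown in dividing myoblasts, but the protocol attached to the libraries starts differentiation right after the first transfection. C2C12 is a single cell line, and nothing states whether the 3 libraries of a condition came from separate cultures, so the spread between them may be technical. The totals ran from 98100142 to 228871500 counts per library, lowest in siCTRL replicate 1 and highest in siCTRL replicate 3.

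Setdb1 is a histone methyltransferase that places methyl groups on lysine 9 of histone H3. The trimethylated form of this mark, H3K9me3, is found on silent chromatin, where Setdb1 is recruited by Trim28 and zinc finger proteins to endogenous retroviruses and other repeats, and to some genes. In embryonic stem cells and germ cells, loss of Setdb1 is known to release such elements, and transcripts that are silent in a tissue can then appear. This is background: the tables used here give UCSC transcript identifiers without gene symbols, positions or sequences. The members are therefore described by their rank in mean siSetdb1 CPM, and only the 2 highest are given by identifier. For the same reason the level of Setdb1 itself and the muscle markers of the cells were not analysed here. CPM is not divided by transcript length, so the ranks order numbers of reads and not numbers of molecules.

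Summed over the 34 members, the siCTRL libraries held 1.90, 1.35 and 1.57 CPM in replicates 1 to 3. The siSetdb1 libraries held 42.5, 51.7 and 28.7 CPM. The median member had 0.0447 CPM in siCTRL and 0.730 CPM in siSetdb1 (means of 3 libraries), and the ratio of these means ranged from 6.35 to 168 with a median of 19.3. The lowest siSetdb1 library of a member had from 4.31 to 35.1 times the CPM of its highest siCTRL library, with a median of 8.57. The limits fix that every siSetdb1 library of a member lies above its siCTRL libraries. They also set a lower bound on both ratios, so only the sizes above that bound describe the members. The members stayed low transcripts after the knockdown: 33.3% of the 42712 transcripts with a siSetdb1 count lay below the median member, and the median of those transcripts was 4.46 CPM. Only 4 members reached 1 CPM in all 3 siSetdb1 libraries, and 14 did so in at least 1 of them. The summed level was unevenly divided, with 17.6% of it in the highest member and 46.4% in the 5 highest.

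**Figure D1:**
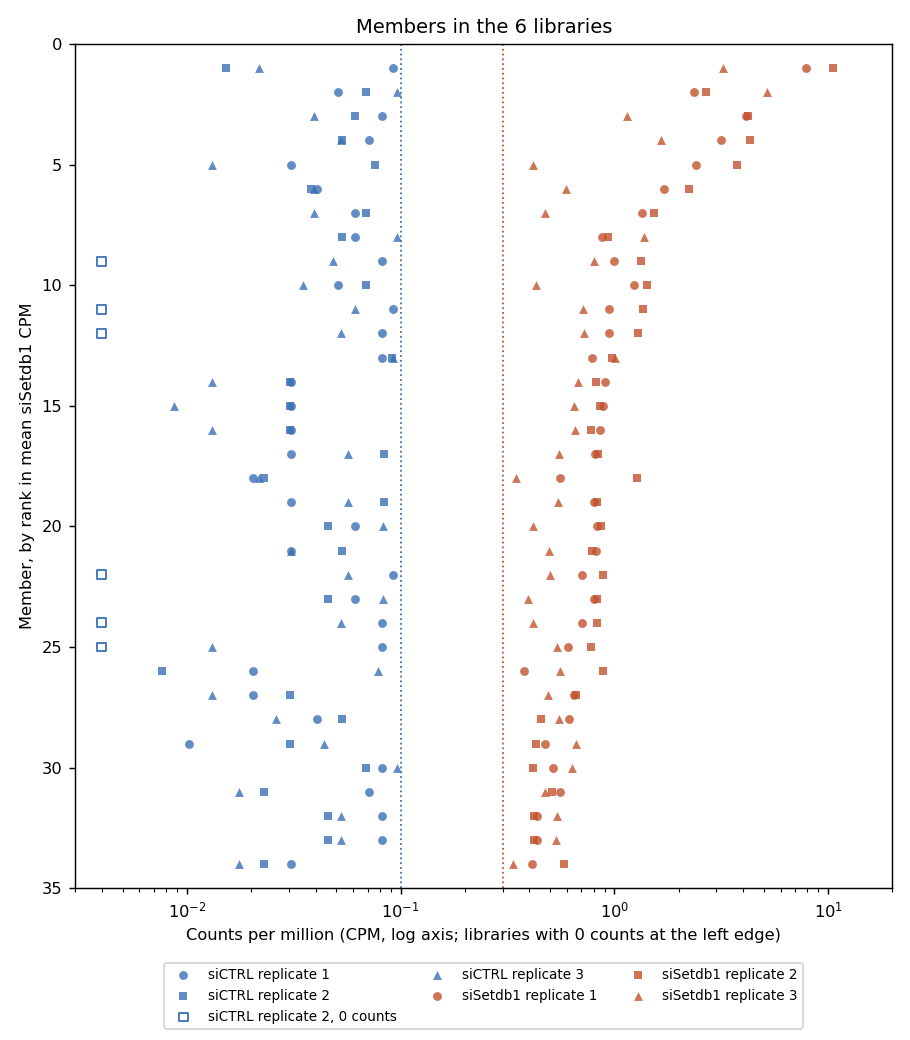
Level of each of the 34 members in the 6 libraries. The x axis is CPM on a log scale, with libraries at 0 counts as open squares at the left edge, the y axis is the rank in mean siSetdb1 CPM, blue points are siCTRL and red points siSetdb1 libraries, and the dotted lines mark the limits of 0.1 and 0.3 CPM. All siCTRL points lie left of 0.1 CPM and all siSetdb1 points right of 0.3 CPM, by construction, and siSetdb1 replicate 3 (triangles) is the leftmost red point in 25 members.

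The highest member, uc008mme.2, had 9, 2 and 5 counts in siCTRL replicates 1 to 3 and 1595, 1774 and 565 counts in siSetdb1 replicates 1 to 3. This is a mean siCTRL level of 0.0429 ± 0.0424 CPM (SD, n = 3) against 7.21 ± 3.69 CPM after the knockdown (SD, n = 3). The fit by edgeR gave a log2 fold change of 7.82 with a standard error of 0.74. Every siSetdb1 library lay far above the siCTRL libraries. The siCTRL level rested on 16 counts in all, so the size of the fold depends on a few reads. The identifier just before it in the table belongs to a transcript with 11, 3 and 6 counts in siCTRL and 2013, 2227 and 712 in siSetdb1. That transcript was left out only because 11 counts in siCTRL replicate 1 are 0.112 CPM.

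Rank 2, uc008nwt.1, differed from the other high members in the order of the siSetdb1 libraries. It had 5, 9 and 22 counts in siCTRL and 477, 454 and 908 in siSetdb1, so that replicate 3 was the highest library of both conditions. Its level went from 0.0719 ± 0.0228 CPM (SD, n = 3) to 3.41 ± 1.54 CPM (SD, n = 3), a log2 fold change of 5.64 with a standard error of 0.39. The 22 counts in siCTRL replicate 3 are the most that the limit of 0.1 CPM allowed in that library.

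The members of ranks 3 to 6 had their lowest siSetdb1 level in replicate 3. Rank 3 had 8, 8 and 9 counts in siCTRL and 828, 712 and 200 in siSetdb1. Rank 4 had 7, 7 and 12 counts in siCTRL and 634, 732 and 289 in siSetdb1. In both, replicate 3 held fewer reads than the other siSetdb1 libraries and still had 14 and 23.1 times the CPM of the highest siCTRL library. Rank 5 had 3, 10 and 3 counts in siCTRL against 487, 635 and 73 in siSetdb1, the widest spread of all members, with 9.02 times more CPM in replicate 2 than in replicate 3. Its log2 fold change was 6.09 with a standard error of 1.03, the largest error among the members. Rank 6 had 4, 5 and 9 counts in siCTRL and 343, 376 and 104 in siSetdb1.

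Ranks 7 and 10 are transcripts with neighbouring identifiers and nearly the same counts. Rank 7 had 6, 9 and 9 counts in siCTRL and 271, 258 and 83 in siSetdb1, and rank 10 had 5, 9 and 8 against 250, 241 and 75. The table does not tell whether such pairs share reads. Ranks 8 and 13 were again highest in siSetdb1 replicate 3. Rank 8 had 6, 7 and 22 counts in siCTRL and 176, 158 and 241 in siSetdb1. Rank 13 had 8, 12 and 21 counts in siCTRL and 159, 164 and 177 in siSetdb1, and it was the member with the highest mean siCTRL level, 0.0882 CPM.

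The 34 members may not all be independent observations, since several had nearly the same counts. Members were joined in a set where their counts differed in every library by at most 10% of the larger count or 3 counts, or where their identifiers lay within 2 rows of each other in the table. This gave 24 sets: 17 members stood alone, and the other 17 fell into 5 sets of 2, 1 set of 3 and 1 set of 4. The set of 4 (ranks 9, 11, 12 and 25) has neighbouring identifiers, with 8 or 9 counts in siCTRL replicate 1, 0 in replicate 2 and 3 to 14 in replicate 3. Their siSetdb1 counts were 201, 225 and 140 for rank 9, 191, 230 and 125 for rank 11, 190, 219 and 126 for rank 12, and 122, 132 and 94 for rank 25. Ranks 22 and 24, a pair of neighbours elsewhere in the table, show the same pattern in siCTRL. Different sets may still not be independent, since ranks 12 and 24 had the same siCTRL counts. Rank 22 had 9, 0 and 13 counts in siCTRL and 142, 149 and 88 in siSetdb1, and rank 24 had 8, 0 and 12 against 142, 140 and 73.

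These 6 members were the only ones with a siCTRL library at 0 counts, in each case replicate 2, and no member was at 0 in every siCTRL library. Replicate 2 was not the shallowest siCTRL library. The silence of the members in siCTRL was therefore a low level and not an absence of reads, with 9 to 41 siCTRL counts per member summed over the 3 libraries.

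The set of 3 (ranks 14, 15 and 16) joins transcripts whose identifiers are not neighbours. They had 3 counts each in siCTRL replicate 1, 4 each in replicate 2 and 2 or 3 in replicate 3. In siSetdb1 rank 14 had 182, 138 and 119 counts, rank 15 had 178, 144 and 114, and rank 16 had 172, 132 and 115. Here the 3 siSetdb1 libraries were close to each other, with at most 1.36 times between the highest and the lowest CPM, and the lowest of them had at least 21.3 times the CPM of the highest siCTRL library. Ranks 17 and 19 also had like counts without neighbouring identifiers: both had 3, 11 and 13 counts in siCTRL, with 163, 142 and 97 in siSetdb1 for rank 17 and 162, 140 and 95 for rank 19. Ranks 20 and 23 are neighbours with 6, 6 and 19 counts in siCTRL, and had 167, 147 and 73 in siSetdb1 for rank 20 and 161, 140 and 69 for rank 23.

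Of the named members that stood alone, rank 18 had 2, 3 and 5 counts in siCTRL and 112, 215 and 61 in siSetdb1, where replicate 2 had 3.65 times the CPM of replicate 3. Rank 21 had 3, 7 and 7 counts in siCTRL and 165, 133 and 87 in siSetdb1. The 10 members of ranks 25 to 34 had mean siSetdb1 levels between 0.443 and 0.641 CPM. Their counts in siSetdb1 replicates 1, 2 and 3 ranged from 76 to 131, 70 to 149 and 59 to 116, and their siCTRL counts ran from 0 to 22.

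The 3 siSetdb1 libraries did not hold the members at equal levels, and the limits do not fix which library is lowest. Replicate 3 was the lowest siSetdb1 library in 25 of the 34 members (73.5%), replicate 2 in 5 and replicate 1 in 4. Replicate 2 was the highest in 21 members. With each set counted once, replicate 3 was lowest in 16 of 24 (66.7%). The median member had 0.675 times as much CPM in replicate 3 as in the mean of replicates 1 and 2. The coefficient of variation among the 3 siSetdb1 libraries had a median of 26.5% over the members. Replicate 3 was under 0.5 of that mean in 10 members, 7 of them among ranks 1 to 10. Members near the limit of 0.3 CPM had less room for a low library, since any lower one would have left them out.

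**Figure D2:**
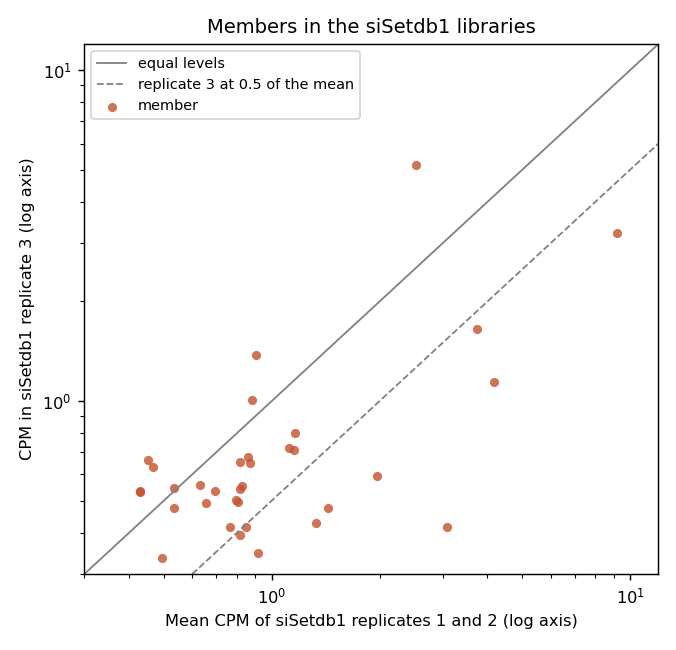
Level of the 34 members in siSetdb1 replicate 3 (y axis, CPM, log scale) against the mean of siSetdb1 replicates 1 and 2 (x axis, CPM, log scale). The solid line marks equal levels and the dashed line 0.5 of the mean, and 10 members lie below the dashed line.

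This order was set beside that of other transcripts with a mean siSetdb1 level in the range of the members (0.443 to 7.21 CPM) and distinct counts. Of 6892 such transcripts not called between the conditions, 20.2% were lowest in replicate 3, and their median level there was 1.17 times the mean of replicates 1 and 2. Of 1596 called higher after the knockdown, 40.9% were lowest in replicate 3, with a median of 0.991 times. Of the 209 among them with a log2 fold change of at least 2, 67.0% were lowest in replicate 3, with a median of 0.764 times. The low level in replicate 3 was thus not particular to the members, and was also seen in the other transcripts of like level with a large fold. The median coefficient of variation among the siSetdb1 libraries was 15.6% in those not called and 22.3% in the 209, below the 26.5% of the members. The groups were matched to the members only by the range of 0.443 to 7.21 CPM, and levels within it were not compared. These transcripts share their 6 libraries and were not joined in sets of like counts, so the shares are a description. Transcripts with nearly the counts of a member stayed among them. With library sizes scaled by TMM, which corrects the totals for composition, replicate 3 was lowest in 73.5% of the members, 71.8% of the 209 transcripts, 56.6% of the 1596 and 28.9% of those not called.

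**Figure D3:**
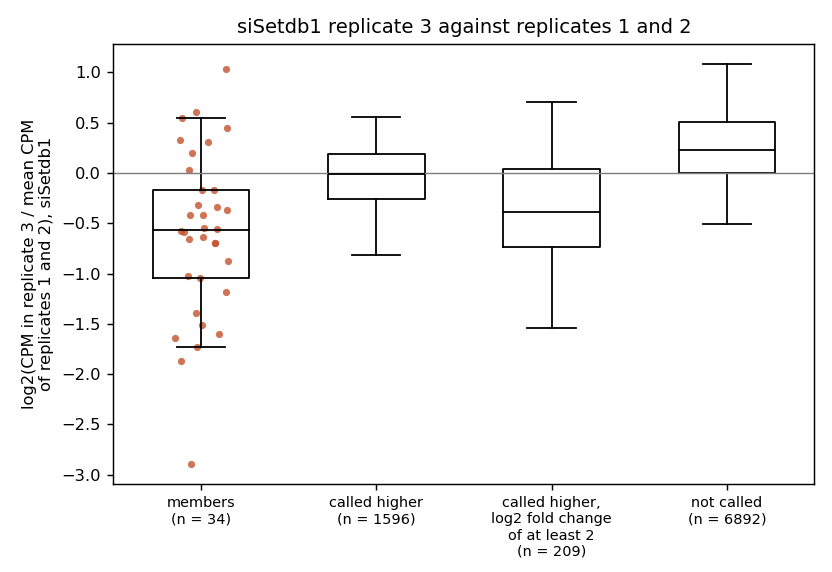
The log2 ratio of CPM in siSetdb1 replicate 3 to the mean of replicates 1 and 2 (y axis) for the members and for other transcripts of like siSetdb1 level that were called higher, called higher with a log2 fold change of at least 2, or not called. Boxes span the quartiles with the median as a line, whiskers the 5th to 95th percentile, and red points are single members, whose median of -0.57 lies below those of the other groups.

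The order of the siCTRL libraries was set beside that of the siSetdb1 libraries. Replicate 3 was the highest siSetdb1 library of 7 members, and in 5 of these 7 it was also the highest siCTRL library. Ranks 32 and 33, both among the 7, belong to 1 set. In rank 13, among the 5, siCTRL replicates 2 and 3 were nearly equal, at 0.0914 and 0.0918 CPM. The libraries numbered 3 also deviated together over all 34247 tested transcripts (r of 0.670), so a shared deviation is not particular to the members. Among the other 27 members siCTRL replicate 3 was the highest in 3. In siCTRL, 17 members had their highest level in replicate 1, the shallowest library. The limit of 0.1 CPM lies there at 9 counts, against 13 counts in siCTRL replicate 2 and 22 in replicate 3, so levels in siCTRL move in coarse steps. The counts that the lower limit asked of the siSetdb1 libraries were 61, 51 and 53.

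Few near-silent transcripts became members. Under 0.1 CPM in every siCTRL library were 21800 transcripts, with 4681 distinct sets of counts. Of these 4681, 34 (0.726%) reached 0.3 CPM in all 3 siSetdb1 libraries, 27 in 2 and 38 in 1. Counted as rows of the table, in which all transcripts without a read are counted separately, the share was 39 of 21800 (0.179%). Of the 27 that reached it in 2 libraries, 22 missed it in replicate 3, 4 in replicate 2 and 1 in replicate 1. Of the 38 that reached it in a single library, 26 did so in replicate 2.

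The same limits with the conditions exchanged, at least 0.3 CPM in every siCTRL library and under 0.1 CPM in every siSetdb1 library, were met by 8 transcripts with distinct counts out of 4665 that were near-silent in siSetdb1 (0.171%), or by 11 of 21793 rows (0.0505%). The one with the highest siCTRL level, uc008hec.2, had 237, 292 and 349 counts in siCTRL and 9, 11 and 13 in siSetdb1. The other 7 had 32 to 35 counts in siCTRL replicate 1, and 4 of the 8 had like counts and close identifiers. In 2 libraries the limit was reached by 14, and in 1 library by 44. The excess in the direction of the knockdown was thus in transcripts that reached the limit in more than 1 library. Of the 14, 10 missed it in siCTRL replicate 3 and 4 in siCTRL replicate 1. Of the 44, 31 reached it in siCTRL replicate 3. At 0.1 CPM in every library of the other condition the numbers were 194 after the knockdown and 144 in the exchanged direction, and at 0.5 CPM they were 17 and 1. The 34 and the 8 moved by over 1.5 times without the deepest siCTRL library (53 and 18 without siCTRL replicate 3) and without the library where the members were lowest (56 and 21 without siSetdb1 replicate 3). Leaving out a library loosens the limits, so neither number could fall. TMM scaling gave 40 and 4.

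**Figure D4:**
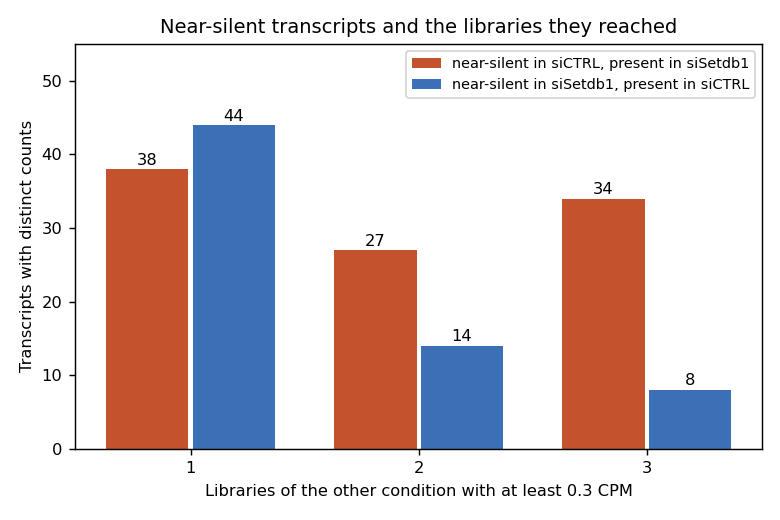
Number of transcripts with distinct counts (y axis, from 0) that were under 0.1 CPM in all libraries of one condition and reached 0.3 CPM in 1, 2 or 3 libraries of the other condition (x axis). Red bars are near-silent in siCTRL and blue bars near-silent in siSetdb1, and the bars stand at 38 and 44 for 1 library, 27 and 14 for 2, and 34 and 8 for 3.

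Close to the limits, ranks 2 and 8 lay just inside in siCTRL, both with a highest siCTRL level of 0.0961 CPM. Just outside it were transcripts with 6, 7 and 23 and with 7, 8 and 23 siCTRL counts, both at 0.1005 CPM in replicate 3. The first of them had 176, 159 and 243 counts in siSetdb1, nearly those of rank 8. In siSetdb1, rank 34 with 83, 98 and 59 counts and rank 18 were the closest to the lower limit, at 0.337 and 0.348 CPM in replicate 3. The nearest transcript left out there had 69, 64 and 51 counts, with 0.291 CPM in replicate 3.

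In edgeR's quasi-likelihood test of siSetdb1 against siCTRL, 34247 transcripts passed the filter on low counts, and 20.2% of them were called higher at an adjusted p-value under 0.05 (Benjamini-Hochberg over all tested). These were 6913 transcripts, and 4318 without siSetdb1 replicate 1, the library whose absence moved this number most. With a block for the replicate numbers, which the main fit and its standard errors leave out, 9633 were called higher. Of 690 transcripts near-silent in siCTRL, with distinct counts, that passed the filter, members included, 315 were called higher and 6 lower. They were chosen for a low siCTRL level, which leaves little room for a lower call. Nothing is therefore read from the 315 against the 6. All 34 members passed the filter, through their siSetdb1 libraries, and all 34 were called higher. The limits used this contrast, so nothing is read from that count. Their log2 fold changes ran from 2.81 to 7.82 with a median of 4.49, where the median of all tested transcripts was -0.0011 and that of all called higher was 0.74. The standard errors ran from 0.23 for rank 13 to 1.03 for rank 5.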

How the data were processed

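RNA of 3 siCTRL and 3 siSetdb1 libraries of C2C12 cells was analysed, grouped by the siRNA in the labels. The authors made stranded libraries from polyadenylated RNA, kept trimmed single reads of at least 25 bases, aligned them with TopHat (1.4.1.1 in the submitters' notes) to mm9, counted them on exons with HTSeq-count and deposited raw counts per UCSC transcript. Their table of deregulated transcripts holds normalized counts and the results of their own DESeq2 comparison and was not used.

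CPM was computed from column totals. Counts of all transcripts were fitted in edgeR 4.0.16 (limma 3.58.1, R 4.3.3) with TMM factors, filterByExpr and no covariate. The standard error of a log2 fold change is its size divided by the square root of the F statistic. The test was checked on simulated data. Alternatives were DESeq2 1.42.0, RLE factors, no filter, a replicate block, each library left out, and other limits. Libraries of the same number deviated together across 34247 transcripts (r of 0.250, 0.458 and 0.670, each over 0.1, and transcripts are not independent), so the replicate numbers were taken as pairs for the block. Named were the 24 members with the highest mean siSetdb1 CPM, plus those nearest the limits. Members, limits and lists were chosen with earlier results of these data known, and the sets of like counts after seeing the values. Lists by gene symbol were not tested, since no table used here pairs the identifiers with symbols. Figures used Python 3.11.15, pandas 2.3.3 and matplotlib 3.10.9.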

Additional observations from a re-analysis of the deposited data

How the results depend on the processing

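The number of members followed its limits. It was 8 with under 0.05 CPM in every siCTRL library, 98 with under 0.2 CPM, 59 with at least 0.2 CPM in every siSetdb1 library and 4 with at least 1 CPM. With each library left out of the limits in turn it ranged from 35 to 56. Leaving out a library only loosens the limits, so this number could not fall and says nothing of the stability of the members. TMM scaling gave 40, which include the 34, and 4 transcripts in the exchanged direction, where leaving out a library gave 8 to 21. Over the whole table, the number called higher (6913) was 9633 with a replicate block, which included all 6913, and ranged from 4318, without siSetdb1 replicate 1, to 7853 with a library left out. All 34 members were called higher in each of the 10 other fits, the replicate block among them. For the 24 named members these fits gave 240 values, all higher in siSetdb1 at the same threshold, with log2 fold changes between 3.36 and 8.71. The limits chose the members by this contrast, so neither count says anything of their stability. The share of members lowest in siSetdb1 replicate 3 was 73.5% with TMM scaling too. Low siCTRL counts limit how well each fold is known.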
